A study of Mus musculus with 5 samples.

Results

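The genes described here encode 10 transcription factors of the ETS family, Ets1, Ets2, Fli1, Erg, Elf1, Elf4, Elk3, Elk4, Etv6 and Gabpa. A called region was assigned to a gene when it overlapped the gene body in the GENCODE vM1 annotation, extended by 30 kb on each side, by at least 1 bp. This gave 33 of 9135 Runx3-bound regions and 75 of 18992 H3K4me1-marked regions, at 10 of 22350 protein-coding genes. ChIP-seq was done on CD8-TC selected with anti-CD8 beads from the spleens of ICR mice. The cells had been TCR-activated for 2 days with plate-bound anti-CD3e and soluble anti-CD28, and had then grown for 4 days with 100 u/ml IL-2. Chromatin was precipitated with anti-Runx3 antibody (2 libraries), anti-H3K4me1 antibody (1 library in the labels) or rabbit non-immune serum, NIS (2 libraries, the background for peak calling). All libraries came from this single culture condition, and the libraries analysed here include no cells lacking Runx3, no resting cells and no RNA.

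ETS factors share a winged helix-turn-helix domain that binds DNA with a GGAA core. Several of them act in lymphocytes, where RUNX and ETS sites often lie close together in enhancers and where Ets1 and RUNX proteins can bind DNA cooperatively. Runx3 is the RUNX protein that drives the cytotoxic programme of CD8+ T cells, and it binds TGTGGT and closely related words. H3K4me1, a single methyl group on lysine 4 of histone H3, marks enhancers that are active or primed and is generally low at the very start of active genes, where other methylation states of this lysine prevail. The genes below differ in their roles in these cells, from Ets1 and Fli1, which are long-standing regulators of T cell genes, to Erg, which is best known from blood stem cells and endothelium.

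Each list held 1 set of regions called from joined reads, with positions and no height, score or p-value. A region was therefore present or absent, replicate error could not be given, and no test was made. Shares are given with 95% Wilson intervals, which cover counting error among regions only. The lists do not give the depth of the libraries. The paper reports fewer aligned reads in these cells than in resting CD8-TC, for Runx3, H3K4me1 and NIS alike. As a check of the labelled cell type, all 6 T cell genes examined (Cd3e, Cd3d, Cd3g, Cd2, Cd5 and Lck) and both Cd8a and Cd8b1 had an H3K4me1-marked region within 5 kb. The same held for 2 of 4 B cell genes (Cd79a and Pax5), for 1 of 4 myeloid genes (Itgam, with 5 regions) and not for the NK cell gene Ncr1, and the part of other cells in the regions described below was not tested. The share of all protein-coding genes with such a region within 5 kb is not given, so these counts stand without a background.

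Regions were unevenly spread over the 10 genes. Fli1 and Erg had 7 Runx3-bound regions each, Elf1 and Elk4 had 5, Ets1 had 3, and Elf4, Elk3 and Etv6 had 2. Ets2 and Gabpa had none. H3K4me1-marked regions numbered 15 at Fli1, 14 at Erg, 13 at Ets1, 9 at Elf1, 7 at Elk3, 5 each at Elf4 and Elk4, 4 at Etv6, 2 at Ets2 and 1 at Gabpa. Thus 8 of 10 genes had at least 1 Runx3-bound region, against 39.6% of all protein-coding genes with the same 30 kb added, and 4 of 10 had 5 or more, against 1.62%. All 10 had an H3K4me1-marked region, against 44.6%, and 3 of 10 had 10 or more, against 1.86%.

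**Figure D1:**
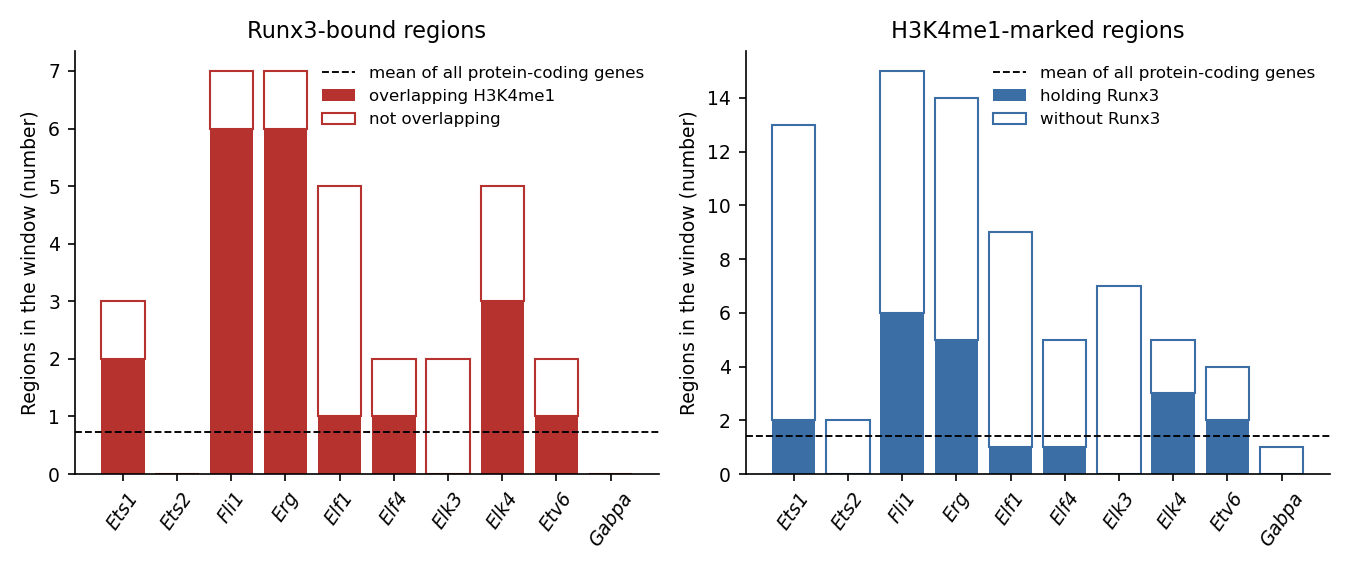
Number of Runx3-bound regions (left) and H3K4me1-marked regions (right) in the window of each gene, split by overlap with the other list. The dashed lines give the mean over all protein-coding genes, 0.725 and 1.40 regions. Fli1 and Erg stood highest on the left, and Fli1, Erg and Ets1 on the right.

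These genes were long, with a median gene body of 82.5 kb against 15.4 kb for all protein-coding genes, and long genes have more room for regions. They were therefore also set beside genes of similar length. Ets1, Fli1, Erg, Elf1 and Etv6 lay between 100 and 250 kb and had on average 4.80 Runx3-bound and 11 H3K4me1-marked regions, where the 1698 protein-coding genes of this length had on average 1.09 and 2.53. In this length class 47.5% of genes had at least 1 Runx3-bound region, and all 5 of these ETS genes did. Ets2, Elf4, Elk3, Elk4 and Gabpa lay between 15 and 70 kb and had on average 1.80 and 4.00 regions, where the 7846 genes of this length had 0.790 and 1.53. Here 45.1% of genes had a Runx3-bound region, and 3 of these 5 ETS genes did.

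H3K4me1 covered 28.8% of the Ets1 window and 25.5% of the Fli1 window. Only 100 and 166 of the 22350 protein-coding genes had a larger share covered. The cover was 10.4% at Elk4, 10.1% at Erg, 9.66% at Elf1, 8.22% at Elk3 and 6.40% at Elf4. It was lowest at Ets2 with 2.77%, Etv6 with 2.47% and Gabpa with 1.26%. The median of the 10 genes was 8.94%, where the median protein-coding gene had no cover and the mean was 2.61%.

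**Figure D2:**
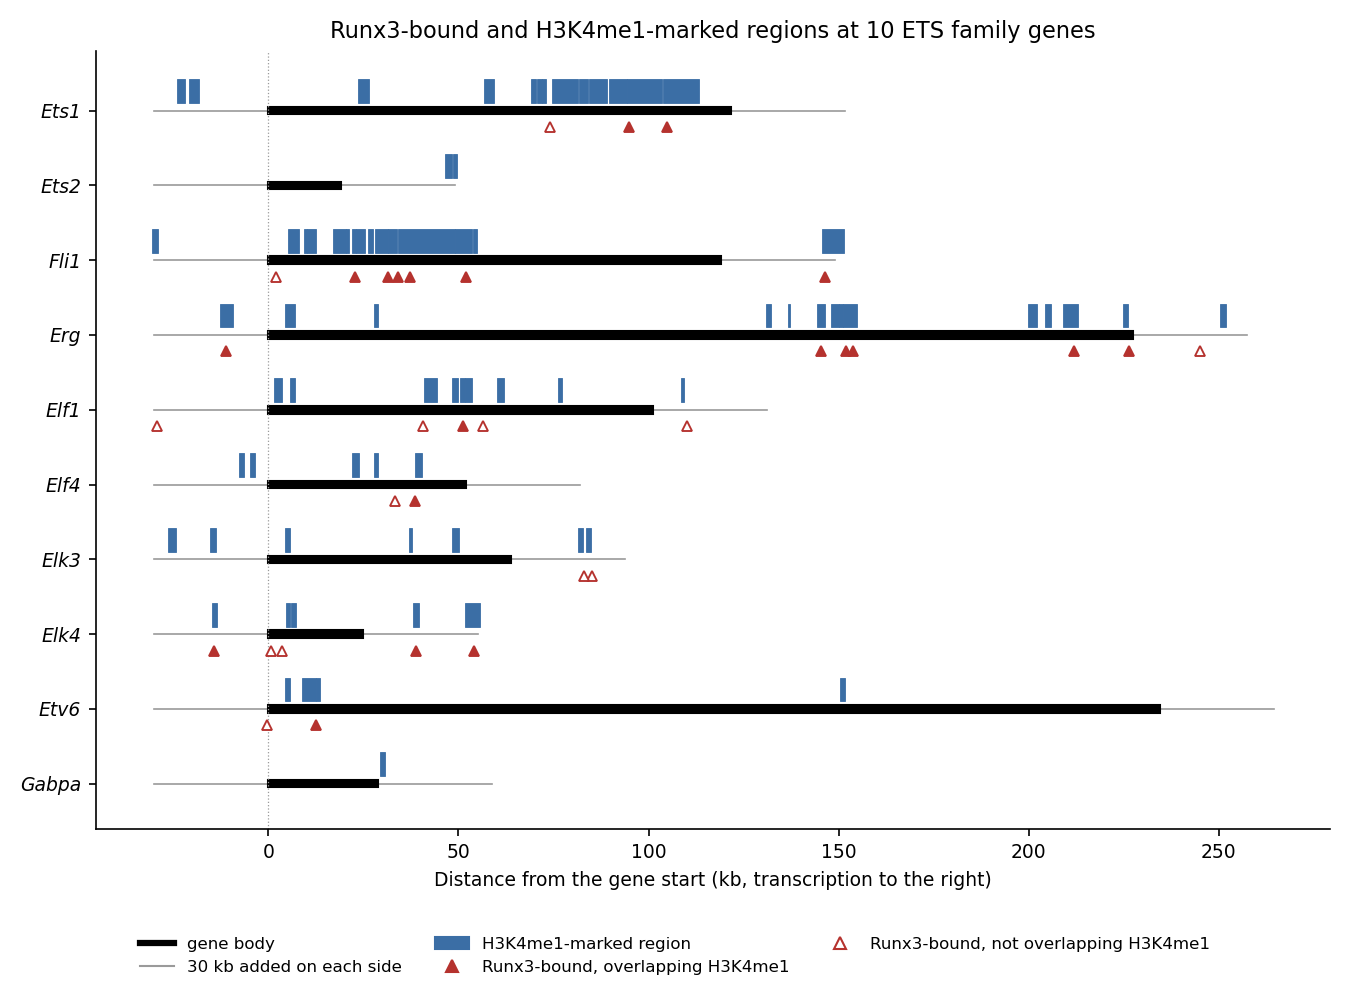
Positions of regions along the 10 genes, as distance in kb from the gene start with transcription to the right. Blue boxes are H3K4me1-marked regions, and triangles are centres of Runx3-bound regions, filled where they overlap H3K4me1. Nearly continuous H3K4me1 is seen in the 3′ part of Ets1 and the 5′ part of Fli1, and no Runx3-bound region at Ets2 or Gabpa.

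Ets1 (ENSMUSG00000032035.7, chr9:32443806-32565405, plus strand) is needed for the development and survival of T and NK cells. When H3K4me1-marked regions less than 1 kb apart were joined into blocks, the longest of all 14899 blocks lay in this gene, at chr9:32518456-32557110. It was 38.7 kb long and consisted of 6 regions that filled 98.3% of it, against a median block of 1777 bp. The widest of the 6 measured 9617, 9354 and 6844 bp and ranked 25, 30 and 107 among all H3K4me1-marked regions. The block began 74.7 kb and ended 113 kb from the start of the longest transcript, in the 3′ part of the gene. It held 2 Runx3-bound regions, at chr9:32538333-32538759 in intron 3 and at chr9:32548435-32548801 in intron 6. Both were wholly inside H3K4me1. Introns of Ets1 are numbered, here and at the sequence below, in the shorter transcript that starts at position 32503627. The other 11 of the 13 H3K4me1-marked regions of Ets1 held no Runx3.

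The third Runx3-bound region of Ets1, chr9:32517694-32518320, was its widest with 627 bp and the nearest to the gene start, at 74.2 kb. It lay 14.4 kb past the start of the shorter transcript at position 32503627, which itself had an H3K4me1-marked region ending 420 bp upstream. This Runx3-bound region sat in the gap just before the long block, 135 bp from its edge, and 752 bp after the H3K4me1-marked region on the other side. The region was thus called unmarked although H3K4me1 flanked it closely. Its centre carried more RUNX and ETS words than that of any other region of Ets1 or Fli1, and its 200 central bp (chr9:32517907-32518106, plus strand, mm9) are printed to show how tightly they were packed. Capitals mark RUNX and ETS words on either strand, here and in all sequences that follow. A RUNX word is TGNGGN with C or T at each N, and an ETS word is NGGAAN with A or C at the first N and A or G at the last.
Ets1 intron 1: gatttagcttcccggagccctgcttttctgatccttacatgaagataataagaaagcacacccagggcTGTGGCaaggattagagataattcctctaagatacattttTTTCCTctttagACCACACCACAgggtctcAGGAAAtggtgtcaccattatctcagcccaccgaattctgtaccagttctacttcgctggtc
There were 3 RUNX words, of which 2 shared a base, and 2 ETS words, with 6 bp between the closest RUNX and ETS words.

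Fli1 (ENSMUSG00000016087.6, chr9:32229793-32348974, minus strand) regulates blood stem cells and platelet precursors and restrains effector differentiation of CD8+ T cells. It is the neighbour of Ets1 on chromosome 9, transcribed away from it, with 94.8 kb between the starts. Of its 15 H3K4me1-marked regions 13 lay in intron 1. Joined at less than 1 kb, 10 of them formed the second longest of the 14899 blocks, chr9:32294136-32332061, with 37.9 kb, from 16.9 to 54.8 kb past the start. The block included the widest single H3K4me1-marked region of the list, chr9:32299952-32314933, with 14982 bp. It held 5 Runx3-bound regions, where the Ets1 block held 2. The 18 blocks that ranked 3 to 20 held 0 to 6 Runx3-bound regions with a median of 3. With a joining distance of 500 bp the Fli1 block shortened to 26.8 kb and ranked 4, and with 2000 bp it kept 37.9 kb and ranked 4, while the Ets1 block ranked 1 at each of these distances.

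**Figure D3:**
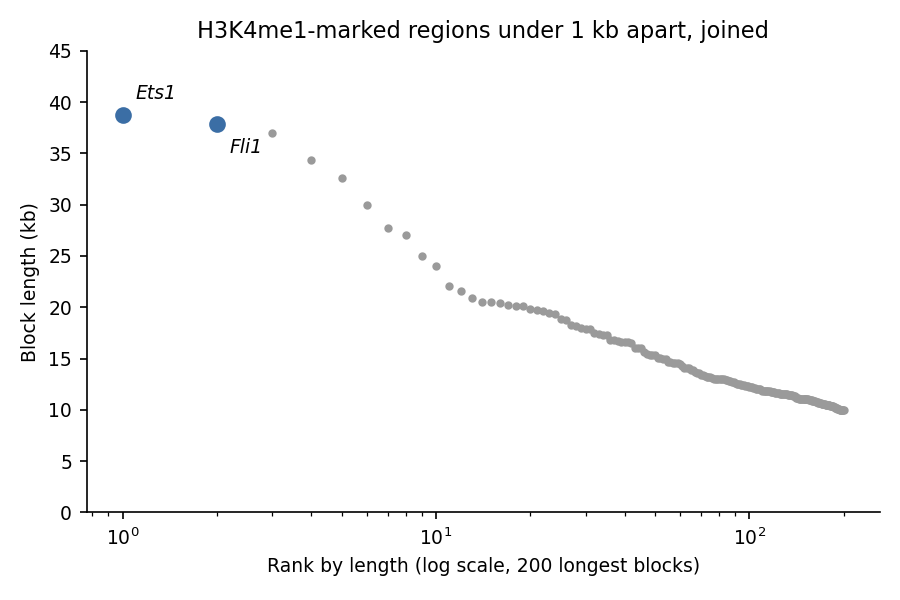
Length in kb of the 200 longest joined H3K4me1 blocks against their rank on a log scale. The blocks of Ets1 (38.7 kb) and Fli1 (37.9 kb) lead the list, closely followed by the third with 37.0 kb, and no other of the 10 genes appears.

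**Figure D4:**
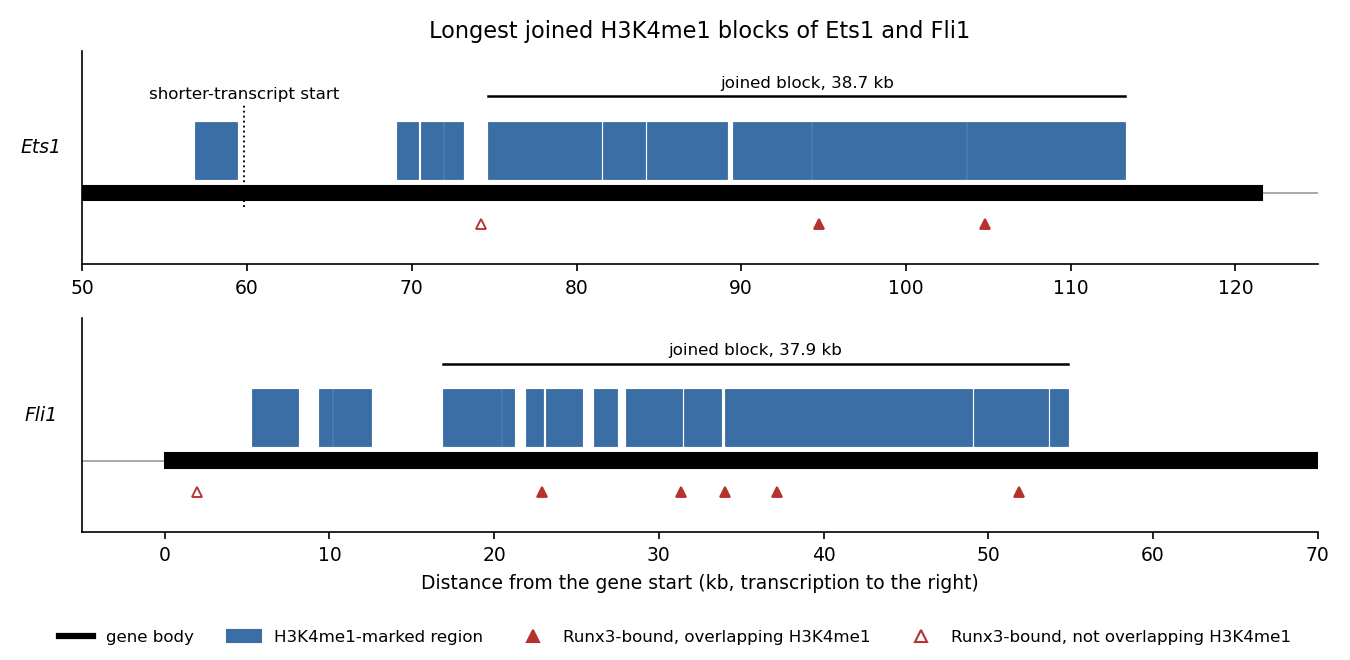
The longest joined blocks of Ets1 and Fli1, as distance in kb from the gene start. Blue boxes are H3K4me1-marked regions and triangles are Runx3-bound regions, filled where they overlap H3K4me1. The Ets1 block holds 2 Runx3-bound regions and a further region lies at its edge, while the Fli1 block holds 5.

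The Runx3-bound regions in the Fli1 block lay 22.9, 31.4, 34.0, 37.2 and 51.9 kb past the start. The widest, chr9:32314431-32315458, measured 1028 bp, ranked 169 of all Runx3-bound regions and bridged the gap between a pair of H3K4me1-marked regions. It had no RUNX and no ETS word in its central 200 bp, but 2 and 4 in the whole region. The region 37.2 kb past the start, inside the widest H3K4me1-marked region, had 2 RUNX and 2 ETS words at its centre (chr9:32311719-32311918, plus strand).
Fli1 intron 1, inside the widest H3K4me1-marked region: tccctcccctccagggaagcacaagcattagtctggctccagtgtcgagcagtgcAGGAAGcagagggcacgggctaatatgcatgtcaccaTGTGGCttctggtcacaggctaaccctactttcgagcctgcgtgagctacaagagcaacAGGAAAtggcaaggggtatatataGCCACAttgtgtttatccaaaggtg
Nearest to the Fli1 start, 1.97 kb downstream of it, lay chr9:32346773-32347245, which was unmarked and 3074 bp from the next H3K4me1-marked region. Among words that did not overlap, it had the shortest spacing of any of the 33 regions, with 1 bp between a RUNX and an ETS word (chr9:32346909-32347108, plus strand).
Fli1 intron 1, near the start: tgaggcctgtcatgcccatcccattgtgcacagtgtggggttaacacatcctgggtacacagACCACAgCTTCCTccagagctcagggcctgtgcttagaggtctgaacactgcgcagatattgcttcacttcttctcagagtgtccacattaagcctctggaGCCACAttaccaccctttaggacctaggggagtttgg
The last Runx3-bound region of the Fli1 window, chr9:32202329-32202936, lay beyond the 3′ end of Fli1 in an intron of the potassium channel gene Kcnj1, 26.9 kb from the Fli1 gene body. A further one, at 30.6 kb, fell just outside the limit, and both lay in the same H3K4me1-marked region of 5969 bp.

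Erg (ENSMUSG00000040732.11, chr16:95580776-95808200, minus strand) is closely related to Fli1 and is required for blood stem cells. Its 7 Runx3-bound regions equalled those of Fli1, and 6 of them overlapped H3K4me1. They formed no single domain. A group of 3 lay in intron 3, between 145 and 154 kb past the start. Of these, 2 lay in a block of 6.81 kb joined at distances under 1 kb, and the block of 10.6 kb joined under 2000 bp held all 3. Another 2 lay at and near the 3′ end, 1 lay 11.2 kb upstream of the start in an H3K4me1-marked region of 3650 bp, and 1 lay beyond the 3′ end, unmarked and without any RUNX word. The widest Runx3-bound region, chr16:95819113-95819679 with 567 bp, was the one upstream, which was also the nearest to the start. The widest H3K4me1-marked region, chr16:95595343-95599052 with 3710 bp, lay towards the 3′ end and held 1 of the 7. None of the 7 regions of Erg had an ETS word in the central 200 bp, whereas 19 of the 26 regions of the other genes did. Erg was singled out here after these counts were seen, and they were not tested. An ETS word occurred somewhere in 5 of the 7 whole regions. RUNX words were present at the centre in 6 of 7. The richest centre, with 3 RUNX words and no ETS word, is shown for comparison with the Ets1 and Fli1 sequences (chr16:95656222-95656421, plus strand).
Erg intron 3: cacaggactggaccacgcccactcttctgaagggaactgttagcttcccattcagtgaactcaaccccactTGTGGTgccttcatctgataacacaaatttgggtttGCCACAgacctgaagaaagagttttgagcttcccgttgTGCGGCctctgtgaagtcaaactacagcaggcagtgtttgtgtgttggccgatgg

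Elf1 (ENSMUSG00000036461.8, chr14:79881001-79982283, plus strand) is an activator expressed widely in lymphocytes. It had 9 H3K4me1-marked regions, 6 of them in intron 1, the widest being chr14:79921908-79925388 with 3481 bp. Only 1 of its 5 Runx3-bound regions overlapped them, chr14:79931780-79932471, which was also the widest with 692 bp. Of the other 4, 2 came close to an edge. The narrowest of all 33, chr14:79921636-79921890 with 255 bp, lay 17 bp from the widest H3K4me1-marked region and held 2 ETS words and no RUNX word. Another, in an intron of the neighbouring gene Sugt1, lay 329 bp from an edge. That region held the only overlapping RUNX and ETS words of the 33 regions (3.03%), against 3.68% of all Runx3-bound regions, and it is shown for that reason (chr14:79990903-79991102, plus strand).
Sugt1 intron, Elf1 window: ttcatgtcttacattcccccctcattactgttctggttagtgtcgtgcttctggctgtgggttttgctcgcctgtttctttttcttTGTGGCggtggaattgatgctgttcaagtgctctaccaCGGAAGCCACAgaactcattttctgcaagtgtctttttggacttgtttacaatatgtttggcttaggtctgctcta
Nearest to the Elf1 start, but 29.4 kb upstream of it, lay a Runx3-bound region at the start of the predicted gene Gm5465, so that the nearest inside the gene was 40.8 kb downstream. The Elf1 start itself had an H3K4me1-marked region 1409 bp downstream.

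Elf4 (ENSMUSG00000031103.6, chrX:45764223-45816309, minus strand), also called MEF, limits the proliferation of CD8+ T cells and promotes NK cell development. Its 2 Runx3-bound regions were among 93 on the X chromosome. The wider, chrX:45777520-45778128 with 609 bp, touched the 5′ untranslated sequence of an exon and shared 40.6% of its length with the widest H3K4me1-marked region of the gene, which measured 1892 bp. It was the only region of the 33 (3.03%, against 6.50% of all) with the AP-1 word TGANTCA (C or G at N) in its central 200 bp, which is bound by Fos and Jun proteins. The other lay in intron 1, 33.4 kb past the start and unmarked.

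Elk3 and Elk4 are ternary complex factors, which bind DNA with SRF and respond to MAP kinase signals. Elk3 (ENSMUSG00000008398.7, chr10:92710159-92773880, minus strand) had 3 of its 7 H3K4me1-marked regions in the gene body but no Runx3-bound region there. The widest, chr10:92798242-92800202 with 1961 bp, lay upstream of the start. Both Runx3-bound regions of its window, of 483 and 539 bp, lay past its 3′ end in Cdk17, a cyclin-dependent kinase gene, 19.1 kb away or more. Neither overlapped H3K4me1, but they lay 174 and 134 bp from its edges, alternating with a pair of H3K4me1-marked regions.

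Elk4 (ENSMUSG00000026436.9, chr1:133904184-133929189, plus strand) had the densest binding, with 5.88 Runx3-bound regions per 100 kb. Of its 5 regions, 3 overlapped H3K4me1. The widest, chr1:133904411-133905195 with 785 bp, covered 4 of the annotated Elk4 starts, was 64.1% GC, had 2 ETS words and no RUNX word in the centre and was unmarked, with H3K4me1 3547 bp away. Over its whole length it held 3 RUNX and 8 ETS words. This was the only region of the 33 with the longer ETS word NGGAAGT (A or C at N) in its centre. A second unmarked region lay 3.54 kb past the start in intron 1, and 783 bp from H3K4me1. It is shown because its centre had 3 RUNX words, 2 of them side by side, and 2 ETS words (chr1:133907623-133907822, plus strand).
Elk4 intron 1: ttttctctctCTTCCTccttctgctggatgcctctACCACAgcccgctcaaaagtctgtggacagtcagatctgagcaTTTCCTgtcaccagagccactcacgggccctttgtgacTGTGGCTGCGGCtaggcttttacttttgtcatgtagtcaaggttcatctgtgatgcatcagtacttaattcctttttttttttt
The remaining regions lay 14.3 kb upstream and in the neighbouring transporter gene Mfsd4, and all 3 were fully inside H3K4me1. The widest H3K4me1-marked region of the window, with 4085 bp, was in Mfsd4 too.

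Etv6 (ENSMUSG00000030199.9, chr6:133985718-134220176, plus strand), also called TEL, is a repressor required for blood formation in the marrow. With 234 kb it was the longest of the 10 genes, yet it had only 2 Runx3-bound and 4 H3K4me1-marked regions, and apart from 1 H3K4me1-marked region all of them lay just upstream or in the first part of intron 1. The Runx3-bound region nearest to the start, chr6:133984962-133985482 with 521 bp, was centred 0.496 kb upstream of it, was 67.0% GC and lay 4693 bp from H3K4me1. The whole region held 3 RUNX and 4 ETS words. Its central 200 bp, in contrast to the intronic sequences above, held 1 ETS word and no RUNX word (chr6:133985122-133985321, plus strand).
Etv6 upstream of the start: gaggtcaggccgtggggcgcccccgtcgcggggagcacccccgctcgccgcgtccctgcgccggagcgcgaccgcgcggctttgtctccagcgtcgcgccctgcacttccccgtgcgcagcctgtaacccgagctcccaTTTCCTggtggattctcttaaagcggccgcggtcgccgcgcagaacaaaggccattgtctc
The wider, with 628 bp, lay 12.6 kb past the start in intron 1, had 2 RUNX words at its centre and bridged a pair of H3K4me1-marked regions, the wider of which measured 3661 bp.

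Ets2 and Gabpa had no Runx3-bound region. Ets2 (ENSMUSG00000022895.8, chr16:95923682-95942658, plus strand) is a target of Ras and MAP kinase signals. The nearest Runx3-bound region lay 42.9 kb away, and its only H3K4me1-marked regions, of 1655 and 1295 bp, lay 27.6 and 29.5 kb past the gene body, just inside the limit. Gabpa (ENSMUSG00000008976.9, chr16:84835170-84864024, plus strand) encodes the DNA-binding subunit of GABP, which activates many housekeeping and mitochondrial genes and Il7r. The nearest Runx3-bound region was 121 kb away, and its single H3K4me1-marked region of 1124 bp lay directly past the gene end. The cofactor genes Gabpb1 and Gabpb2, whose products pair with Gabpa, had 2 and 1 Runx3-bound and 3 H3K4me1-marked regions each. A gene without a called region in its window cannot be called unbound. The lists hold only regions past the calling threshold, and called regions more than 30 kb away, as for Ets2, were not counted.

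Over the 10 genes together, the intervals of both overlap shares included the values of the whole lists. Of the 33 Runx3-bound regions 20 overlapped H3K4me1 (60.6%, 43.7 to 75.3), against 57.3% of all Runx3-bound regions. From the other side, 20 of 75 H3K4me1-marked regions held Runx3 (26.7%, 18.0 to 37.6), against 29.2%. The share varied between genes, from 6 of 7 at Fli1 and Erg to 1 of 5 at Elf1 and 0 of 2 at Elk3. Of the 13 unmarked Runx3-bound regions, 6 had an H3K4me1 edge less than 1 kb away (46.2%, 23.2 to 70.9), against 19.2% of all unmarked ones. Of the 55 H3K4me1-marked regions without Runx3, 33 had a Runx3-bound region within 10 kb (60.0%, 46.8 to 71.9), against 42.1%. These 55 had a median width of 1513 bp, and those holding Runx3 a median of 3485 bp, where the corresponding medians over the whole list were 1496 and 1904 bp. The widest holding Runx3 were those of 14982 bp at Fli1 and of 9617 and 9354 bp at Ets1. At the genes other than Ets1 and Fli1 none holding Runx3 was wider than 4085 bp. H3K4me1 covered 11.3% of the bp of the 10 windows pooled, which gives long windows more weight. The mean of 2.61% over all protein-coding genes counts each gene equally, so the measures differ. By gene, the median cover was 8.94% here, against 0 for all protein-coding genes. The median number of Runx3-bound regions per 100 kb was 1.72, against 0. Whether the shares with a near edge or region went beyond this density was not tested.

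Regions at these genes were mostly far from starts. Only 4 of 33 Runx3-bound regions were centred less than 1 kb from a transcript start (12.1%, 4.82 to 27.3), against 26.3% of all, and 25 lay over 5 kb away (75.8%, 59.0 to 87.2), against 56.4%. The 4 were those at the starts of Elk4, Etv6, Gm5465 and an Mfsd4 transcript. Of the H3K4me1-marked regions 1 of 75 was centred less than 1 kb from a start (1.33%, 0.236 to 7.17), against 8.81%, and 63 over 5 kb (84.0%, 74.1 to 90.6), against 65.6%. These distances were not set beside genes of similar length. The median gene body was 82.5 kb here, against 15.4 kb for all protein-coding genes. None of the 41 distinct annotated starts of the 10 genes lay inside an H3K4me1-marked region, where 1.84% of all annotated starts did, so that the count says nothing particular about these genes. The 4 inside a Runx3-bound region, against 5.06% of all starts, were all neighbouring starts of Elk4. Among Runx3-bound regions 1 kb or more from a start, 19 of 29 overlapped H3K4me1 (65.5%, 47.3 to 80.1), against 70.6%. Another Runx3-bound centre lay within 10 kb of 16 of the 33 regions (48.5%, 32.5 to 64.8), against 33.5%. In all, 22 of the 33 lay in the body of the ETS gene itself, and for 13 the nearest protein-coding start belonged to another gene, which for 2 of the Elf1 regions was Wbp4, whose start adjoins that of Elf1.

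A RUNX word was found in the central 200 bp of 27 of 33 Runx3-bound regions (81.8%, 65.6 to 91.4), against 78.8% of all, and in windows of 200 bp centred 1000 bp to either side in 33.3%, against 28.6%. At least 2 RUNX words were found in 18 (54.5%, 38.0 to 70.2), against 37.0%, and TGTGGT in 21 (63.6%, 46.6 to 77.8), against 54.3%. An ETS word was found in 19 of 33 (57.6%, 40.8 to 72.8), against 66.2%, with 47.0% and 44.4% in the windows to either side. Without Erg the direction turned, since the regions of the other genes had an ETS word in 19 of 26 (73.1%). It also turned with Erg kept when only the central 100 bp were searched (48.5%, against 43.6%). Over all 10 genes, an ETS word was found in 15 of the 29 regions 1 kb or more from a start (51.7%, 34.4 to 68.6), against 66.2%. The longer ETS word NGGAAGT was found in 1 of 33 (3.03%, 0.537 to 15.3), against 20.9%, and away from starts in 0 of 29 (0 to 11.7), against 20.7%. An ETS and a RUNX word no more than 50 bp apart and not overlapping, the ETS-RUNX module, occurred in 12 of 33 (36.4%, 22.2 to 53.4), against 39.0%, and in 7.58% and 7.01% of the windows to either side. The median spacing of the 12 was 16.0 bp, with a range of 1 to 41 bp. Without Erg the module share was 46.2%, above rather than below the 39.0% of all regions. Without Fli1 instead, the module share was 26.9% (7 of 26). In the central 100 bp the module share was above with all 10 genes kept, at 27.3% against 20.6%. Of the 12 modules, 7 belonged to the 10 regions of Ets1 and Fli1, 2 to the 5 of Elk4, and 1 each to Elf1, Elf4 and Elk3. None belonged to the 7 regions of Erg or the 2 of Etv6, and these differences between genes were not tested. The 10 genes encode proteins that could bind such words themselves, but binding of ETS factors was not measured.

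**Figure D5:**
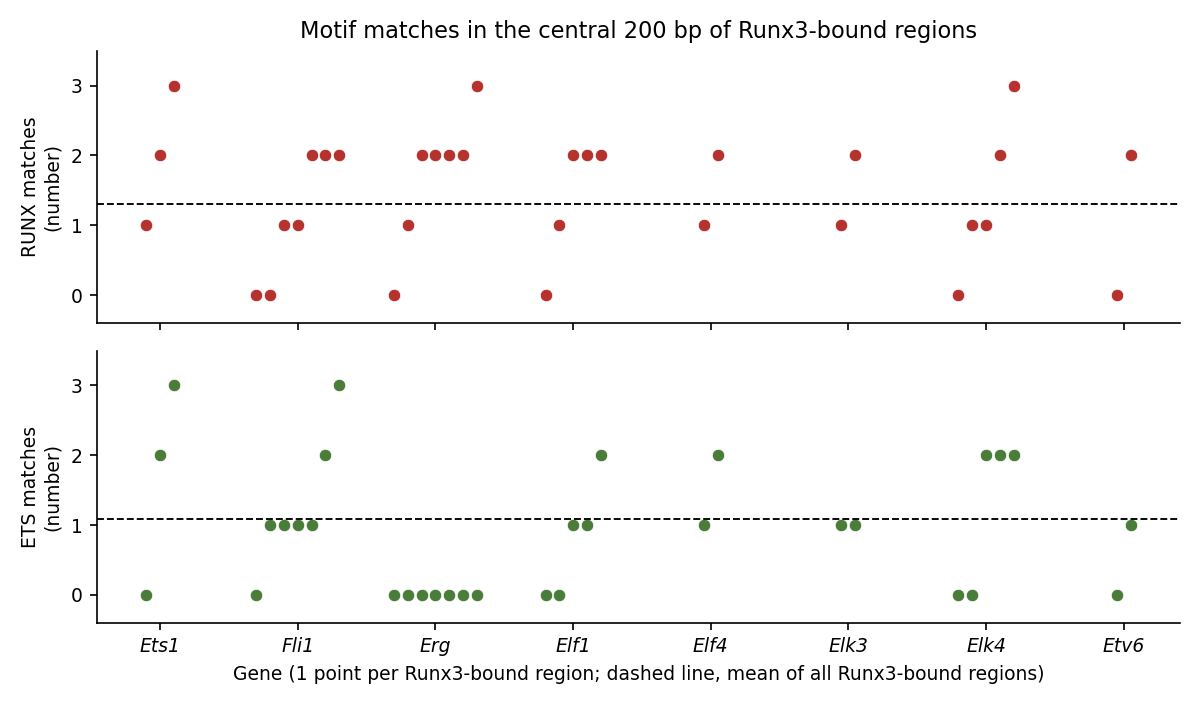
Number of RUNX words (top) and ETS words (bottom) in the central 200 bp of each Runx3-bound region, by gene. Dashed lines give the mean over all Runx3-bound regions, 1.31 and 1.09. All 7 regions of Erg are at 0 ETS words.

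Among 17 other ETS family genes, 16 were found in the annotation, Spi1 under its older symbol. Of these, 7 had a Runx3-bound region within the same 30 kb, that is Erf with 4, Elf2 and Spi1 with 3, Etv3 and Spib with 2, and Elf3 and Etv5 with 1. These 7 of 16 lie close to the 39.6% of all protein-coding genes, as do the 6 of 16 with H3K4me1 to 44.6%. H3K4me1-marked regions were found at 6, namely 8 at Erf, 7 at Spi1, 4 at Etv3, 2 each at Elf2 and Etv5 and 1 at Elf3. Neither was found at 9, among them Elf5, Ehf and Spdef, which are known from epithelia, and Fev, which is known from serotonergic neurons. Windows of short genes such as Erf also hold their neighbours. The 3 Runx3-bound regions at Spi1, which encodes PU.1 of myeloid and B cells, all overlapped H3K4me1.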

How the data were processed

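The deposited values were start and end positions in bp, on the mouse genome mm9, of regions that the authors called, in 1 list for Runx3 and 1 for H3K4me1. The authors aligned reads with ELAND, kept unique alignments, joined repeats and called peaks with MACS against joined NIS reads, after scaling the larger read set to the smaller. The lists held 0 columns of scores. The labels mention 2 experiments for each antibody but list 1 H3K4me1 library. Since repeats were joined, their spread cannot be seen, and unique alignment limits calls in repeated sequence.

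Starts were taken as counted from 0 and are printed counted from 1. Sequence and annotation were NCBIM37, which is mm9, and GENCODE vM1 (22350 protein-coding genes, 86803 distinct transcript starts). Words were searched on both strands in the central 200 bp, or in the ETS-RUNX module with at most 50 bp between them. Distances ran from region centres, or from edges where stated. Intervals were 95% Wilson intervals. Overlaps and word searches were tested on simulated data. Python 3.11.15 and matplotlib 3.10.9 were used.

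All 10 genes were named, with for each the Runx3-bound region nearest to the start and the widest region of either kind. Sequences were those with most words or within 1 kb of the start, outside annotated UTRs, and only those that show a described feature were printed. The sequence near the Fli1 start was added after its values were seen. A listed B cell marker is not reported here. The genes and lists were chosen with earlier results of these data known. Joined blocks, length classes, flanking windows and edge distances were chosen after seeing the data.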

Additional observations from a re-analysis of the deposited data

How the results depend on the processing

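Of 54 alternatives to the 9 main values, 44 left shares within their interval, or counts and cover within 1.5 times. The lists were pooled, so no library could be left out. Runx3-bound regions fell to 20 when the nearest protein-coding start had to be that of the ETS gene, which by construction drops regions nearer to Wbp4 or other neighbours. H3K4me1-marked regions fell to 49 when those under 1 kb apart were merged. Overlap with H3K4me1 rose to 75.8% (62.6% of all) with Runx3-bound regions widened by 500 bp. In whole regions, which are wider than 200 bp, RUNX words were found in 93.9% (92.6% of all), ETS words in 87.9% (88.9%) and the module in 54.5% (57.4%), and RUNX words in the central 100 bp in 48.5% (54.3%). Without Erg, the ETS share was 73.1% (66.2% of all) and the module share 46.2% (39.0%), so the direction against all regions turned. It also turned with Erg kept in the central 100 bp, for ETS words (48.5%, 43.6% of all) and the module (27.3%, 20.6%). RUNX words there turned from above in 200 bp (81.8%, 78.8%) to below. Overlap with H3K4me1 turned from above (60.6%, 57.3%) to below without Erg or without Fli1 (53.8% each). The same held for regions 1 kb or more from a start (65.5%, 70.6%). H3K4me1-marked regions holding Runx3 turned from below (26.7%, 29.2%) to above with the 500 bp widening (37.3%, 33.9%). When more of the Runx3-bound region had to overlap, they were level (21.3%, 21.2%). With the longer ETS word the ETS share was 3.03% (20.9%) and the module share 0 (11.1%), and the cause was not tested. Added after seeing the data were the joining distances and the restriction to regions 1 kb or more from a start. No paired analysis was possible because the lists hold joined libraries and no test was made.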
